A study of Mus musculus with 12 samples.

Results

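Mouse embryonic stem cells held without doxycycline for 72 h, to withdraw Cdk13, were compared with the same cells kept in doxycycline, exon part by exon part. All libraries came from V6.5 cells, a C57Bl/6-129 line, of genotype Cdk13-/-; Cdk13 Tg+, in which the endogenous Cdk13 gene is knocked out and a Flag- and HA-tagged Cdk13 transgene is expressed only while doxycycline is present. The tested condition comprised 4 libraries harvested 72 h after the drug was washed out, 2 from each of 2 independently derived clones (11-8 and 14-1). They were compared with 4 libraries of the same clones held at 1 ug/mL doxycycline, again 2 per clone. A further 4 libraries, taken 48 h after washout, enter only where their values are set beside those of 72 h. Libraries that share clone and condition are biological duplicates, per the labels. Cells with an intact Cdk13 gene, or without the transgene, were not analysed here, so loss of Cdk13 and removal of doxycycline cannot be told apart.

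The members were all exon parts with an adjusted p at 72 h in the authors' deposited table, 105545 of the 138745 parts in the table, from 11600 genes. An exon part is a stretch of a gene that DEXSeq counts as a unit. Its log2 fold change, given by the authors as cells without Cdk13 over cells with it, describes how much of the gene's reads fall in that part, relative to the gene's other parts. A positive value is therefore a gain in share within the gene, whatever the amount of RNA did, and a gain in one part lowers the share of the others. The deposited values are 1 fold change and 1 adjusted p per part, so the value in each library, its spread and its sequencing depth are unknown here. RNA integrity numbers were 9.05 ± 0.173 without doxycycline for 72 h and 9.1 ± 0.141 with it (SD, n = 4 each).

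CDK13 pairs with cyclin K and phosphorylates the C-terminal tail of RNA polymerase II, as does its close relative CDK12. That tail couples elongation to splicing, to 3′ end cleavage and to polyadenylation. Nuclear RNA surveillance, the subject in the title of the series, removes prematurely ended or incompletely spliced transcripts through the nuclear exosome and its adaptors. Detained introns are introns that stay in otherwise spliced and polyadenylated transcripts, which are mostly held in the nucleus. Intronic polyadenylation parts are stretches of an intron used as a premature 3′ end.

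Detained introns had the highest share of rising parts of the classes at 72 h, and the letters at the ends of some of them are shown first. Most detained introns that could be matched were 1 base shorter in the authors' deposited table than the annotated intron. With 1 base added, the width equalled that of an intron of the same gene in the GENCODE M21 annotation for 1465 of 2561 detained introns whose gene name was found, against 100 with no base added and 21 with 2 added. Of the detained introns that rose, 219 of 385 matched exactly 1 annotated intron, and 211 of these lie between coding exons (96.3%). Among matched introns that were not called the share was similar, 1112 of 1181 (94.2%). The set shown, chosen to let the donor and acceptor letters of rising and falling introns be read beside each other, holds the 5 rising introns of lowest adjusted p and both falling introns for which an annotated transcript contains the unspliced intron. Sequences are from GENCODE M21 transcripts on GRCm38, read 5′ to 3′ on the strand of the gene. In each 5′ site the capitals mark the last 3 exon bases and the first 6 intron bases, and in each 3′ site the last 2 intron bases and the first exon base.
Zc3h18 (rose, chr8:122408369-122410880, plus strand), 5′ site: CAGGTAAGTcctgcctgctg
Zc3h18, 3′ site: acactgtctttgttccccAGGtc
Pick1 (rose, chr15:79247316-79248151, plus strand), 5′ site: ATTGTGAGTacccagggggt
Pick1, 3′ site: gacaagcttgcctgctccAGGcc
Sart3 (rose, chr5:113745200-113745579, minus strand), 5′ site: AAGGTATGCtttttgaagaa
Sart3, 3′ site: gggctgtgctgtgtttgcAGGtg
Top3b (rose, chr16:16883564-16884238, plus strand), 5′ site: AAGGTTCTCgtcccttctgt
Top3b, 3′ site: gccttttgtcttccctacAGGtt
Cog2 (rose, chr8:124542951-124544009, plus strand), 5′ site: CAGGTAAGCtcggcaggaga
Cog2, 3′ site: agtccatgctttttctccAGCtg
Luc7l3 (fell, chr11:94293056-94293137, minus strand), 5′ site: AAGGTGACActcagtccaat
Luc7l3, 3′ site: ttgtttctcactttgattAGGgc
Saal1 (fell, chr7:46699719-46701780, minus strand), 5′ site: GCGGTAGGTgaactctacag
Saal1, 3′ site: ttttctgtttctctgctcAGCtc

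All 7 introns begin with GT and end with AG, the usual letters of introns removed by the major spliceosome. ZC3H18 links the cap-binding complex to the nuclear exosome, SART3 recycles the U4/U6 small nuclear ribonucleoprotein, and TOP3B is a topoisomerase that acts on RNA as well as DNA. An annotated exon spanned 43 of the 219 matched rising introns (19.6%) and 172 of the 1181 matched introns that were not called (14.6%), and letters were read only for these. Introns of the form GT-AG made up 42 of the 43 and 169 of the 172. The commonest letters at the 9 capitalised places of the 5′ site, among the introns that were not called, read CAGGTAAGT. The rising introns matched these letters at a median of 6 places (quartiles 5 and 7), as did the introns that were not called (median 6, quartiles 5 and 7), and at least 8 places matched in 11.6% and 10.5% of them. The share of G and C in the intron had a median of 51.1% in rising introns (quartiles 46.7 and 55.5) and of 47.8% in those not called (quartiles 40.6 and 53.1). No test was run on these sequence features.

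Exon use shifted in 3804 of the 105545 tested parts at 72 h (3.6%), called at the authors' adjusted p below 0.05. Parts that rose numbered 2454 (2.33%), parts that fell 1347 (1.28%), and 3 called parts had no fold change. At 48 h the authors' table called 686 of 42340 tested parts (1.62%), and 1362 of the 72 h calls were in parts with no value at 48 h. At 72 h, 2214 of 11600 genes held a called part (19.1%), 1590 a part that rose (13.7%), 1095 a part that fell (9.44%) and 474 both (4.09%). Most of these genes, 1425, had 1 called part, while 93 genes with 5 or more held 665 of the calls. The changes were small. The median absolute log2 fold change was 0.155 in called parts and 0.052 in tested parts that were not called, 34.4% of the called parts stayed under 0.1, and 534 reached 0.5. The number called was 1876 at an adjusted p below 0.01.

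The depletion of Cdk13 itself could not be read from these values, which are relative within a gene, and how reads of the transgene were counted is not given. Of its 14 parts, 9 were tested and 1 rose, an intronic polyadenylation part at a log2 fold change of 0.95 (adjusted p = 0.010 in the authors' deposited table). The other 8 lay between -0.43 and 0.15 in the authors' deposited table and were not called. Cdk12 had all 15 parts tested and none called, with values from -0.06 to 0.35 in the authors' deposited table. Ccnk, the gene of cyclin K, rose in its detained intron E013 (chromosome 12, 109434790 to 109437517, plus strand, mm9) by 0.38 (adjusted p = 0.0014 in the authors' deposited table), while its other 6 parts lay between -0.03 and 0.04 and were not called. Of the stem cell markers, 8 of 10 had tested parts, against 3 of 6 fibroblast, 2 of 5 endoderm, 2 of 4 mesoderm and 3 of 4 neural markers. A tested part shows only that reads were sufficient, so the levels of these markers were not assessed.

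**Figure D1:**
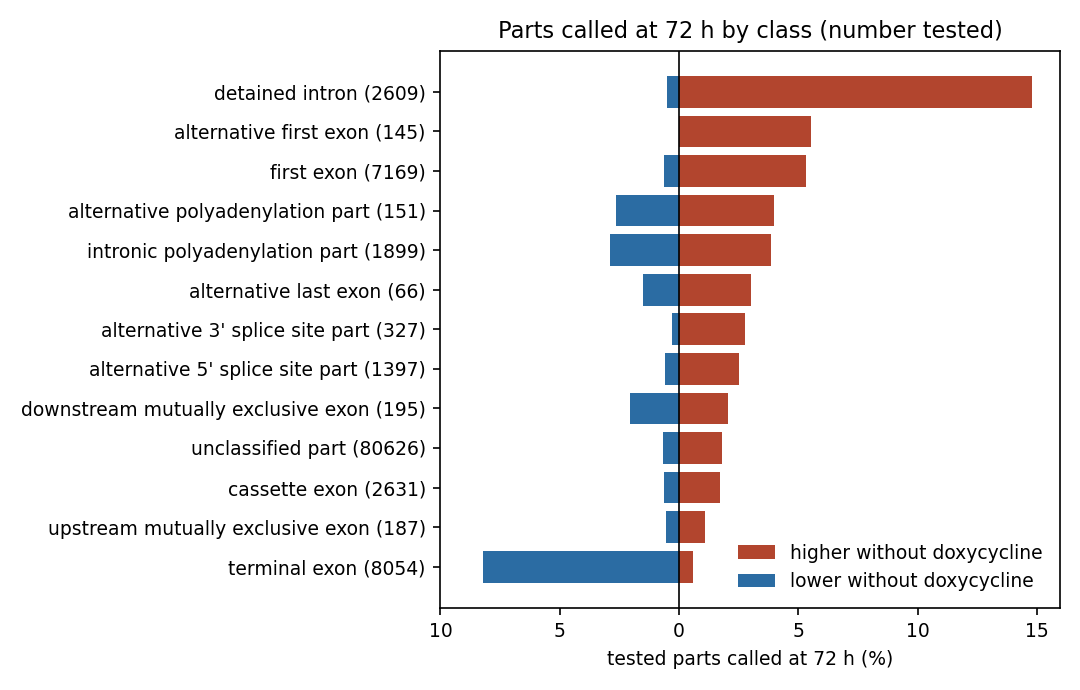
Share of tested parts called at 72 h in each class, in percent, with lower parts to the left of 0 and higher parts to the right and the number of tested parts in brackets. Detained introns reach 14.8% higher and terminal exons 8.22% lower.

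The classes separated by direction. First exons rose in 382 and fell in 45 of 7169 tested, terminal exons fell in 662 and rose in 48 of 8054, and detained introns rose in 385 and fell in 13 of 2609. As shares of tested parts these are 5.33% of first exons and 14.8% of detained introns higher and 8.22% of terminal exons lower, beside 2.33% higher and 1.28% lower over all parts. Alternative 5′ splice site parts, the stretch between competing donor sites, rose in 35 and fell in 8 of 1397, and alternative 3′ splice site parts rose in 9 and fell in 1 of 327. Alternative first exons rose in 8 and fell in 0 of 145. Cassette exons, which can be skipped, rose in 45 and fell in 17 of 2631 (2.36% called, beside 3.6% over all parts). Mutually exclusive exons rose in 2 and fell in 1 of 187 upstream exons, and rose in 4 and fell in 4 of 195 downstream exons. Unclassified parts, most of them of the width of an annotated exon, rose in 1452 and fell in 536 of 80626.

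For detained introns, first exons and terminal exons, the medians over all tested parts with a fold change, called or not, had the sign of most calls. Detained introns had a median of 0.18 with quartiles of 0.04 and 0.33, and first exons one of 0.05 with quartiles of -0.01 and 0.12. Terminal exons had a median of -0.04 with quartiles of -0.11 and -0.00, and unclassified parts one of 0.01 with quartiles of -0.04 and 0.06. A positive value was found in 80.7% of detained introns, 72.3% of first exons, 54.9% of unclassified parts and 24.7% of terminal exons. Among all calls, the minority direction was the larger in size at the ends of genes. First exons that rose had a median of 0.13 and those that fell -0.41, and terminal exons that fell had a median of -0.12 and those that rose 0.37. Most minority calls, 33 of 45 first exons and 36 of 48 terminal exons, were in parts with no value at 48 h. Among parts also tested at 48 h, first exons that rose had a median of 0.11 and those that fell -0.13. Terminal exons there had -0.10 where they fell and 0.09 where they rose, so the gap in size was not kept. Alternative polyadenylation parts, with 6 higher and 4 lower calls of 151 tested, had a median of -0.04, and alternative last exons, with 2 higher and 1 lower of 66, had one of -0.03. Intronic polyadenylation parts spread widely to both sides, with quartiles of -0.11 and 0.18 around a median of 0.01.

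**Figure D2:**
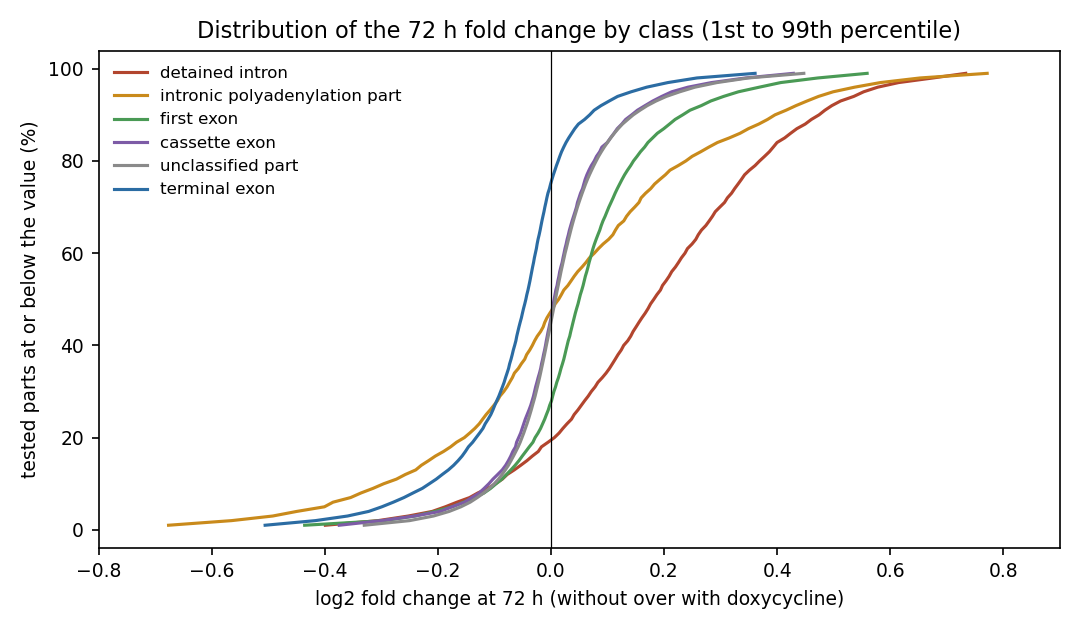
Cumulative distribution of the log2 fold change at 72 h, without over with doxycycline, over all tested parts of 6 classes, from the 1st to the 99th percentile. The curve of detained introns lies to the right, with a median of 0.18, the curve of terminal exons to the left, with a median of -0.04, and cassette exons and unclassified parts nearly coincide.

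First exons rose with the lowest adjusted p in Psmb10, Acin1, Csrp2, Acly and Hcfc1. Psmb10, a subunit of the immunoproteasome, split cleanly: its 3 parts nearest the 5′ end stood at 0.58, 0.65 and 0.63, and its other 3 parts, a detained intron, an internal exon and the terminal exon, at -0.13, -0.07 and -0.07, all called in the authors' deposited table (first exon E010, chromosome 8, 108461855 to 108462292, minus strand, mm9, adjusted p = 4.9e-53). At 48 h the same 6 parts stood at 0.40, 0.45, 0.46, -0.08, -0.05 and -0.08 in the authors' deposited table, against the same libraries in doxycycline. In Acin1, which encodes the splicing-associated protein acinus, the first exon E034 rose by 0.28 (adjusted p = 1.9e-23 in the authors' deposited table). Another 3 of its 21 tested parts rose, all among the first 9 of 23, and the terminal exon fell to -0.07 in the authors' deposited table. The remaining 3 first exons rose by 0.15 in Csrp2, a LIM-domain protein gene, by 0.11 in Acly, which encodes the enzyme that makes cytosolic acetyl-CoA, and by 0.15 in Hcfc1, a transcriptional co-regulator gene (the authors' deposited table). First exons fell in the keratin gene Krt42 (-0.21), the ribosomal protein gene Rpl27 (-0.14) and Zglp1 (-0.26), the 3 of lowest adjusted p in that direction (the authors' deposited table). Alternative first exons rose most clearly in Macf1, an actin and microtubule crosslinker gene, at 0.41 (E062, adjusted p = 1.1e-11), then in Tars (0.12), Manba (0.44), Prkcd (0.25) and Spry4 (0.20), in the authors' deposited table.

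Terminal exons fell with the lowest adjusted p in Csnk1d, Ncaph2, Gse1, Ssh1 and Poldip2. In Csnk1d, which encodes casein kinase 1 delta, the terminal exon E003 (chromosome 11, 120823052 to 120824648, minus strand, mm9) stood at -0.19 with an adjusted p of 9.0e-82, the lowest of any part named here, in the authors' deposited table. Upstream in the same gene an alternative 5′ splice site part rose by 0.61 and 2 internal exons by 0.06 and 0.08, in the authors' deposited table. Gse1 fell in its terminal exon to -0.51 (adjusted p = 2.6e-39), rose in its detained intron E021 by 0.53 (adjusted p = 1.3e-13) and rose in 5 internal parts upstream of that intron by 0.04 to 0.17, in the authors' deposited table. The 6 parts of Gse1 between the detained intron and the terminal exon lay between -0.08 and 0.01 in the authors' deposited table and were not called. Terminal exons fell to -0.27 in Ncaph2, a condensin II subunit gene, to -0.64 in Ssh1, a cofilin phosphatase gene, and to -0.13 in Poldip2 (the authors' deposited table). Terminal exons rose in Safb2 (0.49), a scaffold attachment factor gene, and Atn1 (0.15), the gene of atrophin-1, both among the 3 of lowest adjusted p in that direction (the authors' deposited table).

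The share of terminal exons called varied with their width. Terminal exons of 834 to 1618 bases fell in 10.6% and those of 2 to 224 bases in 4.65%, and the median log2 fold changes were -0.05 and -0.03 in these width classes. First exons rose in 4.86% to 5.87% of parts in each of 5 width classes. Read counts per part were not available, so the part of width in these shares was not tested.

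Within single genes the ends moved apart. Of 4797 genes with both a first and a terminal exon tested, 80 had a first exon that rose and a terminal exon that fell, and 1 had the reverse. The first exon stood above the terminal exon in 77.5% of genes, with a median difference of 0.10 in log2 fold change (quartiles 0.01 and 0.23). Among the 80 genes, the pair with the lowest larger adjusted p was in Ddx54, an RNA helicase gene, with 0.08 in the first exon and -0.44 in the terminal exon (the authors' deposited table). Prpf31, which encodes a protein of the U4/U6.U5 tri-snRNP, had 0.12 and -0.52, and the fibronectin gene Fn1 had 0.12 and -0.13, first exon before terminal exon, in the authors' deposited table. The ribosomal protein gene Rps29 was also among them, with 0.02 in the first exon and -0.02 in the terminal exon, in the authors' deposited table.

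**Figure D3:**
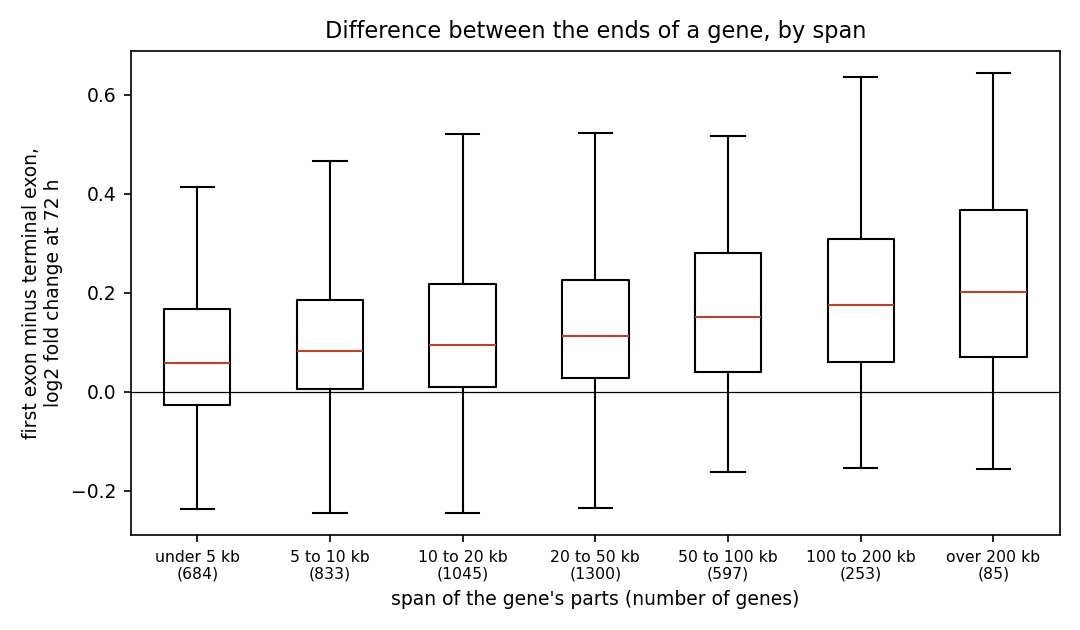
Difference in log2 fold change at 72 h between the first and the terminal exon of a gene, by the genomic span of the gene's parts, with the number of genes in brackets. Red lines are medians, boxes quartiles and whiskers the 5th and 95th percentiles; the median is 0.06 under 5 kb and 0.20 over 200 kb.

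The gap between the ends was larger in genes that span more of the genome. Its median was 0.06 in 684 genes under 5 kb, 0.11 in 1300 genes of 20 to 50 kb and 0.20 in 85 genes over 200 kb. The first exon lay above the terminal exon in 67.5%, 80.4% and 87.1% of these genes. The gap was also larger in genes with more parts, with a median of 0.07 in genes of up to 5 parts and 0.24 in the 79 genes with over 40. Genes were also grouped by the total width of their parts, leaving out detained introns and intronic polyadenylation parts. The order by span was kept where that width was at most 1439 bases (0.07, 0.08 and 0.12 from short to long span). It was also kept where that width was 1440 to 2777 bases (0.08, 0.10 and 0.13). In the genes with more bases the values were 0.13, 0.12 and 0.16. Genes under 5 kb had the higher share of called parts all the same, 5.58%, beside 1.73% in genes over 200 kb.

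**Figure D4:**
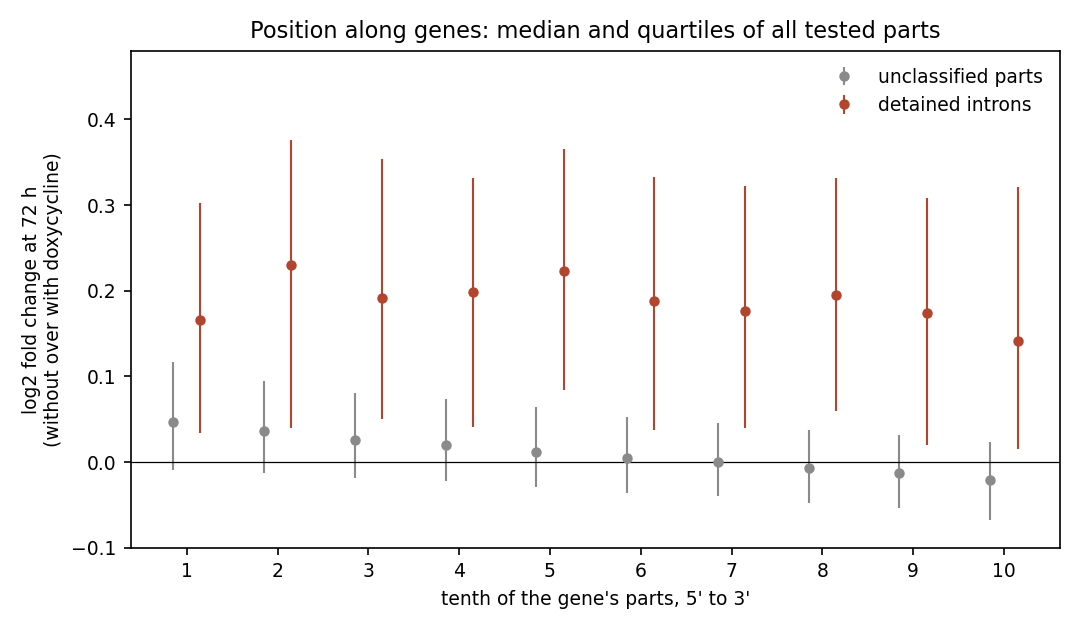
Median log2 fold change at 72 h (points) with quartiles (lines) in 10 equal bins of part number along the gene, from the 5′ to the 3′ end, for unclassified parts and for detained introns, called or not. Unclassified parts go from 0.05 in bin 1 to -0.02 in bin 10, while every bin of detained introns has a median between 0.14 and 0.23.

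Position along the gene ordered the changes of unclassified parts too. Some of these are the outermost part of their gene, such as E001 of Cdk12. The median log2 fold change of unclassified parts was 0.05 in bin 1 of 10 along the gene's parts, 0.01 in bin 6 and -0.02 in bin 10. The share that rose was 4.87% in bin 1 and 0.61% in bin 10, and the share that fell was 0.26% and 2.17%. In genes with at least 3 parts, and leaving out parts in the exact middle, 1650 parts that rose lay on the 5′ side and 690 on the 3′ side, so that 70.5% lay on the 5′ side, which held 47.6% of tested parts. Of the parts that fell, 1135 lay on the 3′ side and 165 on the 5′ side (87.3% on the 3′ side). Without first and terminal exons the shares were 66.6% and 80.2%. When position was taken as distance along the genomic span, 58.3% of the parts that rose lay on the 5′ side, which then held 37.2% of tested parts.

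Genes without any called part showed the same order. The median of the exonic parts on the 5′ side was above that of the 3′ side in 80.2% of 1979 genes with a called part and in 68.9% of 6077 genes with none, in genes with at least 2 tested exonic parts on each side. In genes spanning at least 50 kb, unclassified parts 1 to 5 kb from the 5′ end had a median log2 fold change of 0.04 and those over 100 kb from it 0.00. Counted from the 3′ end, unclassified parts under 1 kb away had a median of -0.02 and those 50 to 100 kb away 0.04. With genes divided into 5 bins, cassette exons numbered 16 higher and 0 lower in bin 1, at the 5′ end, and 7 higher and 11 lower in bin 5.

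**Figure D5:**
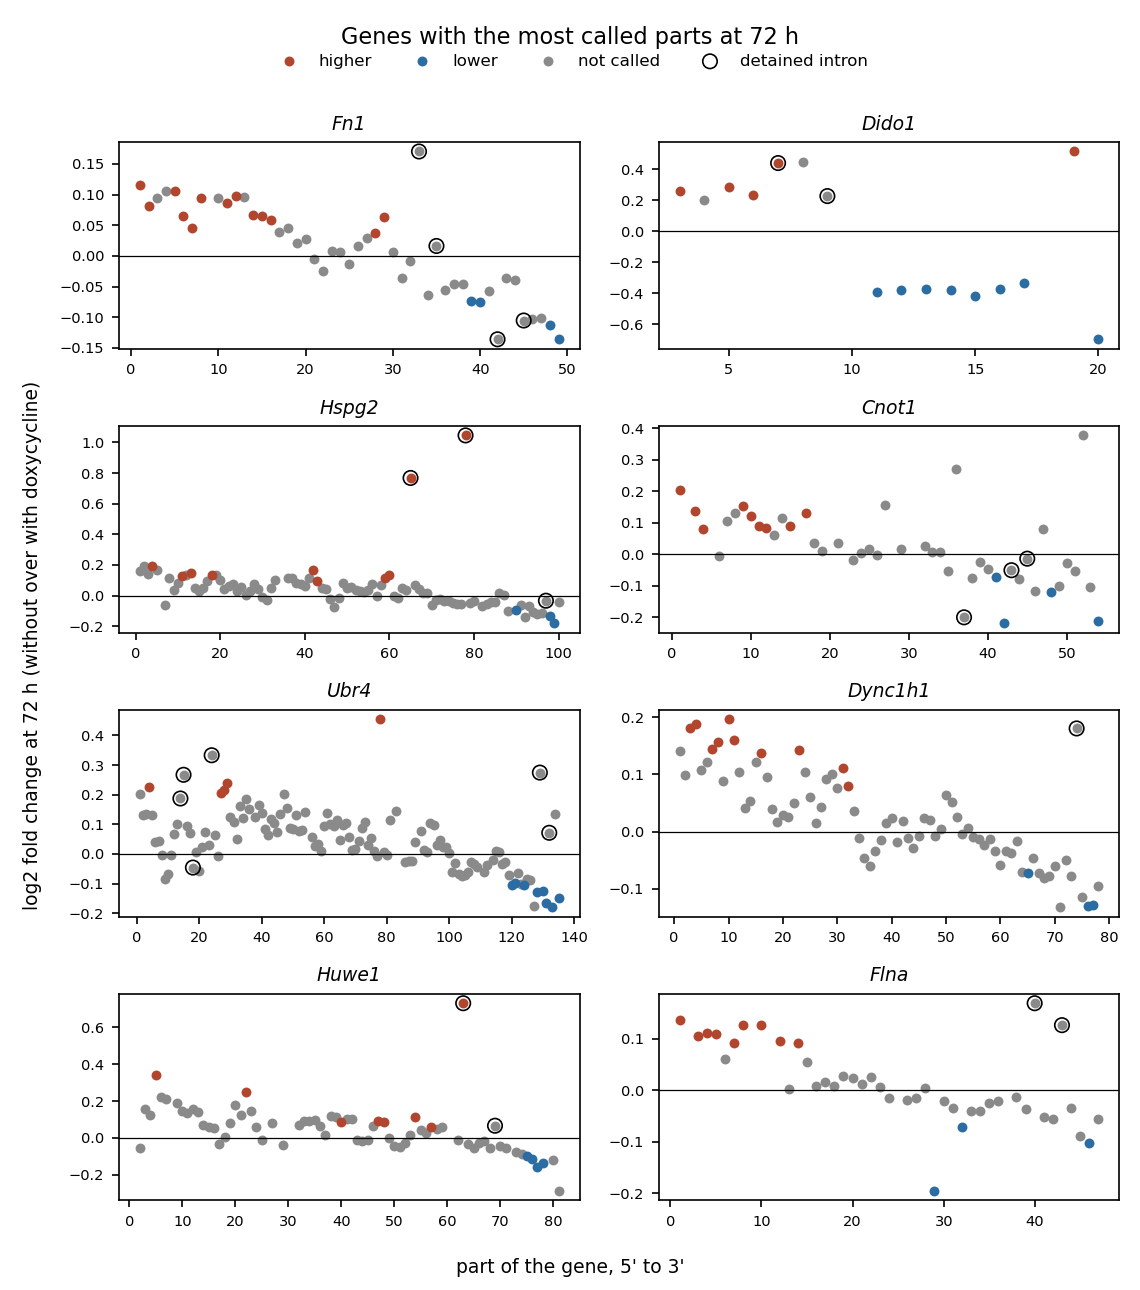
Log2 fold change at 72 h of every tested part, in 5′ to 3′ order, in the 8 genes with the most called parts; the vertical scale differs between genes. Red and blue points are parts called higher and lower, grey points were not called, and circles mark detained introns.

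The 8 genes with the most called parts were Fn1, Dido1, Hspg2, Cnot1, Ubr4, Dync1h1, Huwe1 and Flna, most of them long genes for large proteins. Genes with more tested parts have more chances of a call. The share of tested parts called was between 10.2% in Ubr4 (13 of 127) and 81% in Dido1 (13 of 16), beside 3.6% over all parts. In Fn1, fibronectin of the extracellular matrix, 13 parts rose, all among the first 29 of 49, by 0.04 to 0.12, and 4 fell, from the 39th part on, to between -0.07 and -0.13 (the authors' deposited table). Dync1h1, the heavy chain of cytoplasmic dynein, rose in 10 parts between the 3rd and the 32nd of 78 and fell in 3 from the 65th on. Flna, the actin crosslinker filamin A, rose in 9 of its first 14 parts and fell in 3 from the 29th on. Cnot1, the scaffold of the CCR4-NOT deadenylase, rose in 9 of its first 17 parts and fell in 4 from the 41st of 54 on. Ubr4 and Huwe1 are very large ubiquitin ligases, with 5 higher and 8 lower parts in Ubr4 and 8 higher and 4 lower in Huwe1. In Hspg2, perlecan of the basement membrane, 2 detained introns stood at up to 1.05 in the authors' deposited table, while the 3 parts that fell were from the 90th of 100 on.

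Dido1 differed from the others by a step. This gene encodes the death inducer-obliterator proteins, whose isoforms share a 5′ region. Internal parts E032, E030 and E029, at places 3, 5 and 6 of 20, rose by 0.26, 0.28 and 0.23, and the detained intron E028 after them by 0.44 (the authors' deposited table). All 7 tested parts from place 11 to place 17 fell to between -0.33 and -0.42, and the terminal exon to -0.70, in the authors' deposited table. Between these, an intronic polyadenylation part and a second detained intron stood at 0.44 and 0.23 and were not called, with adjusted p of 0.46 and 0.80 in the authors' deposited table. A further intronic polyadenylation part at place 19 rose by 0.51 (adjusted p = 0.0094 in the authors' deposited table).

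Detained introns that rose were set beside the parts next to them. Their log2 fold changes were between 0.12 and 1.05 with a median of 0.43, and 129 reached 0.5. The part just upstream had a median of 0.00 over 326 introns with a value there, and the part just downstream -0.01 over 328. Of these neighbours, 17 of 326 upstream and 15 of 328 downstream parts rose, and 7 and 8 fell. Beside detained introns that were not called, 23 of 1762 upstream and 24 of 1822 downstream parts rose, and 26 and 50 fell. The counts of rising neighbours were thus the higher share beside rising introns, and this difference was not tested. Plin3, which encodes a lipid droplet coat protein, is an example with 7 tested parts: the detained intron E010 (chromosome 17, 56423854 to 56425634, minus strand, mm9) rose by 0.83 (adjusted p = 1.3e-22) and the 6 others lay between -0.03 and 0.01, in the authors' deposited table. In H2afy, for the histone variant macroH2A1, the detained intron E005 rose by 0.53 (adjusted p = 2.1e-12), and at 48 h it stood at 0.34 (adjusted p = 0.012), in the authors' deposited table. Ckap2, a gene of a mitotic spindle protein, and the predicted gene Gm20388 rose in a detained intron by 0.59 and 0.46 in the authors' deposited table. Among the 13 detained introns that fell, those of lowest adjusted p were in Jup, the gene of the junction protein plakoglobin (-0.84), in BC032203 (-0.90) and in Psmb10 (-0.13), in the authors' deposited table.

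The share of detained introns that rose was similar over widths and differed by place. In 5 classes of width, from 9 to 488 bases up to 2825 to 20256 bases, 13.0% to 16.1% rose, and the medians over all tested introns were 0.17 to 0.20. By place along the gene, 23.3% rose in bin 1 of 5, at the 5′ end, and 10.6% in bin 5, while the medians were 0.20 and 0.17. Most tested detained introns lay on the 3′ side (1895, against 601 on the 5′ side), and 250 of those that rose lay there and 117 on the 5′ side. A value at 48 h existed for 189 detained introns, and of these 63 rose at 72 h (33.3%), beside 322 of the 2420 without a 48 h value (13.3%).

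Several introns of a gene could rise together. Of 1801 genes with a tested detained intron, 331 held one that rose (18.4%). Where 2 were tested in a gene, at least 1 rose in 118 of 426 genes and both in 30. In 5 genes 3 introns rose. Srrm2, which encodes the spliceosomal scaffold SRm300, rose in all 3 tested introns by 0.41, 0.31 and 0.26, in 5′ to 3′ order, in the authors' deposited table. Rbm5, a regulator of alternative splicing, rose in all 3 by 0.66, 0.81 and 0.52, and Cttn, the gene of cortactin, by 0.42, 0.46 and 0.73, in the authors' deposited table. Dock6 and Nap1l4 rose in 3 of 4 tested introns, and the fourth stood at 0.18 and 0.34 in the authors' deposited table. Terminal exons of genes with a rising detained intron fell in 43 of 251 cases (17.1%), and those of genes with tested detained introns of which none rose in 151 of 1076 (14%).

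Intronic polyadenylation parts rose in 73 and fell in 55 of 1899 tested, which is 3.84% higher and 2.9% lower, beside 2.33% and 1.28% over all parts. The 5 that rose with the lowest adjusted p were in Smad1, Pdzd8, Eif4h, Hsd17b4 and Mat2a. In Smad1, a transducer of bone morphogenetic protein signals, the part E008 (chromosome 8, 81886091 to 81895682, minus strand, mm9) rose by 0.82 (adjusted p = 1.7e-12), while the 5 other tested parts lay between -0.10 and 0.11, in the authors' deposited table. Mat2a encodes the enzyme that makes S-adenosylmethionine, and retention of its last intron is known to respond to that metabolite. Here its part E006, classed as intronic polyadenylation, and the neighbouring part E004 rose by 0.68 each (adjusted p = 7.6e-06 and 5.9e-07), the first exon rose by 0.73 and the terminal exon fell to -0.09, in the authors' deposited table. Parts rose by 1.32 in Pdzd8, by 0.43 in the translation factor gene Eif4h and by 1.01 in Hsd17b4, a gene of peroxisomal fatty acid oxidation, in the authors' deposited table. The Pdzd8 part is the only 1 of its gene given there, so the parts it is relative to cannot be seen. Intronic polyadenylation parts fell to -0.49 in Nrp2, a semaphorin receptor gene, to -0.56 in Suv39h1, which encodes a histone H3 lysine 9 methyltransferase, and to -0.87 in 1500012F01Rik, in the authors' deposited table. The Nrp2 part is the last of 16 parts of its gene given there, and the others are at places 5 of 8 and 4 of 6. By width, the share that rose was 2.62% in parts of up to 239 bases and 5.79% in parts of at least 3106 bases. Among the 240 parts also tested at 48 h, 8 rose and 25 fell at 72 h, and among the 1659 without a 48 h value 65 rose and 30 fell.

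Cassette exons rose with the lowest adjusted p in Srsf6, Huwe1, BC032203, Srrt and Dhx16. The cassette exon E003 of the SR protein gene Srsf6 (chromosome 2, 162758760 to 162758818, plus strand, mm9) rose by 0.54 (adjusted p = 4.6e-11), and the 6 other parts of the gene, a detained intron at 0.26 among them, were not called, in the authors' deposited table. Srrt, which encodes ARS2, a partner of the cap-binding complex, rose in the cassette exon E033 by 0.34 and in the detained introns E034 and E013 by 0.38 and 0.58, in the authors' deposited table. Dhx16, a spliceosomal helicase gene, rose in a cassette exon by 0.18, Huwe1 by 0.25 and BC032203 by 0.62, in the authors' deposited table. The class is the authors' label. For the parts of Srsf6, BC032203 and Srrt, no exon of that gene name and width was found in GENCODE M21. The Huwe1 part had the width of an exon in retained-intron transcripts only, and the Dhx16 part that of a coding exon. Cassette exons fell in Ndel1 (-0.55), a dynein regulator, Macf1 (-0.60) and Aplp1 (-0.08), a relative of the amyloid precursor, in the authors' deposited table. By reading frame, the counts were 26 higher and 9 lower of 1301 exons whose width is a multiple of 3 and 19 higher and 8 lower of 1330 others.

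Unclassified parts also differed by width. Of 59075 parts in a width class with a median of 114 bases, about the size of an internal exon, 905 rose (1.53%) and 391 fell (0.66%). Of 1222 parts in a class with a median of 656 bases, 63 rose (5.16%) and 5 fell (0.41%), and of 547 parts in a class with a median of 1352 bases 36 rose (6.58%) and 15 fell (2.74%). Parts whose width equals neither an annotated exon nor an annotated intron of the gene rose in 3.13% of 14033, beside 1.52% of 59955 parts of the width of an annotated exon. By lowest adjusted p, and with 1 part per gene, the unclassified parts that rose were in Psmb10 (0.65), Rfc5 (1.502), a subunit of the replication clamp loader, Dido1 (0.28), the uridine kinase gene Uck2 (0.09) and Bcat1 (0.79), a branched-chain aminotransferase gene, in the authors' deposited table. The Bcat1 part spans 8298 bases (chromosome 6, 144997083 to 145005380, minus strand, mm9). Unclassified parts fell in Pvrl2 (-0.30), the gene of nectin-2, Hspg2 (-0.18) and Zc3h10 (-0.52), in the authors' deposited table.

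Genes of RNA processing were described by lists, read beside the 19.1% of all tested genes that had a called part. The listed genes had more tested parts than the median gene in most lists, with list medians from 5 to 23.5 parts beside 7 over all genes, and more tested parts give more chances of a call. Counted by part, the share called was below the 3.6% of all parts for homologous recombination and Fanconi anemia genes (1.47%), RNA polymerase II kinases and cyclins (2.6%), cohesin and condensin (2.67%) and nonsense-mediated decay and exon junction genes (2.75%). In the other lists it was between 4.35% (cleavage and polyadenylation) and 15.6% (oxidative phosphorylation). Over all genes, 4.15% of unclassified parts with a 48 h value were called at 72 h, beside 1.27% of those without one. Read depth per part is unknown here, so its part in the list shares was not tested. Of core spliceosome genes 14 of 22 had a called part, with 30 parts higher and 15 lower. The lowest adjusted p were in the GTPase gene Eftud2 (0.15), the helicase gene Snrnp200 (0.11) and Sf3a1 (0.05), all of which rose in the part concerned (the authors' deposited table). Of SR and hnRNP splicing regulators 13 of 24 had a called part, with 23 higher and 9 lower, led by Srsf6, by the first exon of Ptbp1 (0.18) and by an unclassified part of Srsf2 (0.37), in the authors' deposited table. Of nuclear exosome, adaptor and cap-binding genes 8 of 23 had a called part, with 14 parts higher and 7 lower. Of their 20 tested detained introns 5 rose, in Srrt, Zc3h18 and Dis3 only. As 14.8% of all tested detained introns rose, so small a count is near the background, and the difference was not tested. Oxidative phosphorylation genes, outside RNA processing, had 3 of 7. In Zc3h18 the detained introns E017 and E025 rose by 0.40 and 0.32 in the authors' deposited table. Of its exons, that at place 2 of 21 rose by 0.05 and that at place 4 fell to -0.28. The exons at places 19 and 20 fell to -0.07 each, in the authors' deposited table. Among genes for cleavage and polyadenylation, 7 of 17 had a called part (7 parts higher, 2 lower), of nonsense-mediated decay and exon junction genes 5 of 14 (4 higher, 2 lower), and of mRNA export genes 6 of 15 (9 higher, 2 lower). Among them rose an intronic polyadenylation part of the scaffold gene Sympk (0.29), a detained intron of Smg5 (0.24) and a part of the export helicase gene Ddx39b (0.46), in the authors' deposited table.

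The transcription machinery held called parts as well, read beside the same 19.1% of all tested genes. Of RNA polymerase II kinases and cyclins 4 of 14 had a called part, which were Ccnk, Cdk11b, Cdk13 and Cdk8, and the 2 detained introns that rose, of 7 tested, were in Ccnk and in Cdk8 (0.33 in the authors' deposited table). With 14.8% of all detained introns rising, that count is near the background. Of elongation and termination factors 10 of 22 had a called part, with 15 parts higher and 5 lower. The first exon of Supt5h, a subunit of the elongation factor DSIF, rose by 0.22, a 5′ part of the histone chaperone gene Supt6h rose by 0.09, and a part of the FACT subunit gene Supt16h at place 21 of 26 fell to -0.11, in the authors' deposited table.

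Called parts were also found in lists outside transcription and RNA processing, read beside the same 19.1% of all tested genes. Of translation factors 12 of 20 had a called part (18 parts higher, 17 lower), of aminoacyl-tRNA synthetases 10 of 16 (17 higher, 8 lower), of chaperones 11 of 18 (13 higher, 6 lower), of nucleoporins 9 of 17 (15 higher, 3 lower), of oxidative phosphorylation genes 10 of 21 (13 higher, 10 lower) and of nucleotide synthesis genes 9 of 19 (21 higher, 4 lower). Eef1a1, a translation elongation factor, rose in the 6-base part E023 by 0.04 (adjusted p = 3.9e-14), in the authors' deposited table. Its parts E017, E015 and E014 were called lower there, at -0.01, -0.02 and -0.02. Paics, an enzyme of purine synthesis, rose in a part by 0.08 (adjusted p = 3.3e-08), in the authors' deposited table. A detained intron rose by 0.52 in Atp5c1, a subunit of ATP synthase, by 0.32 in the chaperone gene Hspa4 and by 0.64 in the nucleoporin gene Nup88, in the authors' deposited table. Of cell cycle genes 11 of 24 had a called part (12 higher, 5 lower), with the first exon of cyclin D3, Ccnd3, at 0.70 (adjusted p = 4.0e-12 in the authors' deposited table). Of cohesin and condensin genes 7 of 16 had one (5 higher, 5 lower), with a detained intron of Smc2 at 0.60 in the authors' deposited table.

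The remaining lists were homologous recombination and Fanconi anemia genes, with 5 of 21 (4 parts higher, 2 lower), p53 targets, with 4 of 17 (6 higher, 2 lower), the integrated stress response, with 5 of 19 (4 higher, 3 lower), and pluripotency genes, with 6 of 19 (4 higher, 4 lower). As shares of tested genes these were 23.8%, 23.5%, 26.3% and 31.6% in that order. Over all tested genes the share was 19.1%, so most of these counts are near the background. In Brca1, which CDK12 loss is known to affect, the terminal exon fell to -0.10 (adjusted p = 4.7e-05), in the authors' deposited table. A detained intron of Fanci rose by 0.56 and the terminal exon of Rad51l3 fell to -0.37, in the authors' deposited table. Among pluripotency genes the terminal exon of Sall4 fell to -0.20 (adjusted p = 6.9e-12) and the first exon of Dppa4 rose by 0.15, in the authors' deposited table. In Trp53 an internal exon rose by 0.03, and in Sesn2, which is on the p53 list and the stress response list, the first exon rose by 0.08, in the authors' deposited table.

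Several of these list counts depended on the threshold or on the parts counted. At an adjusted p below 0.01 the genes with a called part numbered 1 for RNA polymerase II kinases and cyclins, 6 for elongation and termination, 2 for cleavage and polyadenylation and 3 for nonsense-mediated decay. They numbered 1 for homologous recombination, 7 for the cell cycle and 3 for the integrated stress response. Among parts tested at both times, the count was 1 for RNA polymerase II kinases and cyclins and 2 for homologous recombination.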

How the data were processed

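Polyadenylated RNA was sequenced from 12 libraries, 8 of which are compared here, after stranded mRNA library preparation, per the labels' protocols. The authors quantified exon parts with DEXSeq and deposited, per the file headers, for each part and time a p-value adjusted for the false discovery rate and the log2 ratio against doxycycline. The submitters' processing notes name STAR 2.4.1d and build mm9. The annotation behind the parts, the DEXSeq version, the model, the use of clone in it and of strand in counting were not given in the sources used here. Reads of overlapping or antisense genes, and of near-identical copies, may therefore be shared.

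A part was called where the adjusted p of the authors was below 0.05, which matched their own significance column in all 138745 rows. Parts with no adjusted p count as not tested, and 22 gene names that had become dates were restored from part identifiers. Parts were ordered 5′ to 3′ by strand. Counts, medians and quartiles over these values were computed with Python 3.11.15 and pandas 2.3.3 and checked on simulated data. No test was added, because the file gives no value per library, and parts of a gene are not replicates. Depth per library and its precision are unknown. Replicates are those the labels name, and a clone is 1 derived line.

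The 20 gene lists held 415 entries, of which 387 matched by symbol and 9 by an older name (RefSeq genes of GRCm38.p6). The members and lists were chosen with earlier results of these data known. Named parts were, with 1 part per gene and class, the 5 of lowest adjusted p in the commoner direction and the 3 in the other, the 8 genes with most calls, up to 3 genes per list, and Cdk13, Cdk12 and Ccnk. 1 terminal exon that this rule selects is not reported here. Genes with several rising introns, pairs of ends, and further parts of named genes were added after their values were seen. Introns were identified by width in GENCODE M21, not by converting coordinates.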

Additional observations from a re-analysis of the deposited data

How the results depend on the processing

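The numbers of calls followed the threshold. The total was 1876 at an adjusted p below 0.01 and 904 below 0.001, with 1202 and 560 higher and 674 and 344 lower, 1612 (1186 higher, 426 lower) where the log2 fold change was 0.2 or more in size, and 2442 (1397 higher) among parts also tested at 48 h. Parts higher made up 61.4% of calls with 1 part per gene and 61.9% below 0.001, beside 64.6% as reported. Among parts tested at both times the medians were 0.0012 over all parts, 0.041 for first exons, -0.040 for terminal exons, 0.170 for detained introns, 0.0027 for unclassified parts, and -0.029 for intronic polyadenylation parts, whose sign turned. Terminal exons of at least 50 bases had a median of -0.048. The cause of these shifts was not tested. The side shares were 58.3% (higher, 5′ side) by distance along the span and 66.6% and 80.2% (lower, 3′ side) without first and terminal exons. Genes with a rising first and a falling terminal exon numbered 37 below 0.01. Detained introns that rose, counted in alternatives chosen after seeing the data, numbered 223 below 0.01, 105 below 0.001 and 63 among parts tested at both times. For the main comparisons 36 alternative values stayed within 1.5 times a count, or within the interval of a share or median, and 23 did not. For single classes and lists 49 did, 14 did not and 1 turned in sign. Both tallies include the medians over all parts with a fold change, which equalled the reported medians throughout. Those entries could not move and add nothing. The intervals were 95% binomial intervals that treat each part as independent. Parts of a gene are not independent, so these tallies describe the size of shifts and do not measure robustness. No paired analysis was possible because the table holds no value per library, and for the same reason no library could be left out, the clones could not be compared, and no other tool or normalization could be run.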

Other observations

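Calls at 72 h were spread over all chromosomes in the table. The share of tested parts called was between 2.28% on chromosome 13 and 5.17% on chromosome 8, beside 3.6% over all parts, and parts higher outnumbered parts lower on each chromosome. Alternative 5′ splice site parts rose more often where they were wide, in 14 of 279 parts of 180 bases or more with 0 lower, beside 8 higher and 1 lower of 289 parts of up to 12 bases. No test was run on these counts, and the part of read depth in them was not tested.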
